A study of Rattus norvegicus with 16 samples.

Results

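The cytosolic ribosomal protein genes are the genes for the protein parts of the ribosome outside mitochondria. They were taken from the table by symbol: Rpl or Rps followed by a number, together with Rplp0, Rplp1, Rplp2, Rpsa and Fau, and without the Rps6k kinases. This gave 83 genes on 93 loci of 28168 loci in all, 18005 of which carry a gene symbol. Of the 83 genes, 49 encode proteins of the large (60S) subunit and 34 of the small (40S) subunit, and 10 had several loci, of which the one with the highest mean was used. Values are in FPKM, which divides the fragments of a gene by its transcript length and by the library's total, so levels of different genes are compared per length.

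Poly-A RNA of the frontal cortex was sequenced in 16 libraries from male Sprague-Dawley rats aged 11 weeks at the start, in 4 groups of 4. All rats were kept on their diet for 7 weeks. HF_5AzaD rats ate a high fat diet and had intraperitoneal injections of 5-AzaD, an inhibitor of DNA methyltransferases, dissolved in PBS, over 10 days. HF_PBS rats had the same diet with injections of the PBS vehicle alone over 10 days, HF rats ate the high fat diet without injections, and chow rats ate chow without injections. Libraries are numbered as in the sample titles: 3, 5, 6 and 7 in HF_5AzaD, 1 to 4 in HF_PBS, 5 to 8 in HF and 1 to 4 in chow. Groups follow the stated treatment. The design text and the titles conflict in their abbreviations for HF and HF_PBS, and what an exchange would change is given under processing. The labels do not tie libraries to individual animals, so a p-value here sets a difference against the spread between samples, which may be technical. The order of tissue collection, library preparation and sequencing is not given, so a batch that followed the injections cannot be told apart from the injections.

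A ribosome is assembled from ribosomal RNA and 1 copy of most of its proteins, so the cell needs the proteins in balanced amounts. Their messages are among the most abundant in most tissues and are known as TOP messages: they start with a C at the cap followed by a run of pyrimidines, through which mTOR signalling controls their translation. In neurons, ribosomal protein messages are also found in dendrites and axons. The genes have many processed copies across mammalian genomes, and reads from such copies and from the parent gene are hard to separate.

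Because the C and the pyrimidine run are the feature by which these messages are known, the bases around the annotated start are shown for 9 members: 6 that rose in the injected groups below (Rps24, Rps15a, Rps26, Rpl10a, Rpl6, Rplp1) and 3 abundant 40S members that passed no test (Rps15, Rps16, Rps23). Each sequence is RefSeq's on build GRCr8, from 10 bases before the annotated start to 20 bases from it, read 5′ to 3′ on the gene's strand, with the pyrimidine run that begins at the start in capitals.
Rps24, chr16:96507-96536 (+ strand): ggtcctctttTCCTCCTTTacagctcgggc
Rps15a, chr1:181860265-181860294 (- strand): ttttctttccacagtcaccatggtgcgaat
Rps26, chr7:1643385-1643414 (- strand): ccgccgggtcCTCTTTCgagtcttggctcc
Rpl10a, chr20:6390523-6390552 (+ strand): cttctgccttCTTTTCCggttcccgcagcc
Rpl6, chr12:41011671-41011700 (- strand): ttacatcactagatggcgggtgaaaaggcg
Rplp1, chr8:71290853-71290882 (- strand): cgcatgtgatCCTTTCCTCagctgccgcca
Rps15, chr7:10068096-10068125 (- strand): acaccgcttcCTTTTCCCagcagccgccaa
Rps16, chr1:92770648-92770677 (+ strand): aaaatcggtcggggtggccccaagctttcc
Rps23, chr2:23814507-23814536 (+ strand): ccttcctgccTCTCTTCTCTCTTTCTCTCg
Rpl10a, Rps26, Rplp1 and Rps15 start with a C that opens a run of 5 or more pyrimidines. Rps24 and Rps23 have a T at the annotated start and a pyrimidine just before it, and Rps15a, Rpl6 and Rps16 start at a purine. A promoter was found in RefSeq for 67 of the 83 members. A C at the annotated start followed by at least 4 pyrimidines was present in 24 of these 67, 35.8%, and in 2.63% of all 27457 promoters. Allowing such a run to begin within 10 bases of the annotated start gave 74.6% of the members and 28.8% of all promoters. The longest run that began at a member's start had 19 pyrimidines, in Rps23 and in Rpl27a. Over each promoter (250 bases before the start and 50 after it), read on both strands, GGGCGG was present in 40 members, 59.7%, and in 34.9% of all promoters. CCGGAAGT was present in 8 members (11.9%, against 4.01% of all), AAGATGGC in 6 (8.96%, against 3.44%) and TATAAA in 8 (11.9%, against 14.3%). None of the 4 motifs contains another on either strand.

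Listed levels differed widely between the members. Of the 83 genes, 19 averaged 100 FPKM or more over the 16 libraries, 31 lay between 10 and 100, 15 between 1 and 10, and 18 below 1 FPKM. The last class holds genes that every ribosome needs: Rps19, Rplp2 and Rpl8 were listed at 0 in all 16 libraries, 12 others were at 0 in 8 to 15 libraries, and 67 of the 83 were above 0 in every library. In a table without counts an exact 0 can be a failed estimate, so these genes are only said to be listed at 0. Both subunits held such genes, with 10 of 49 large-subunit and 8 of 34 small-subunit members below 1 FPKM.

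**Figure D1:**
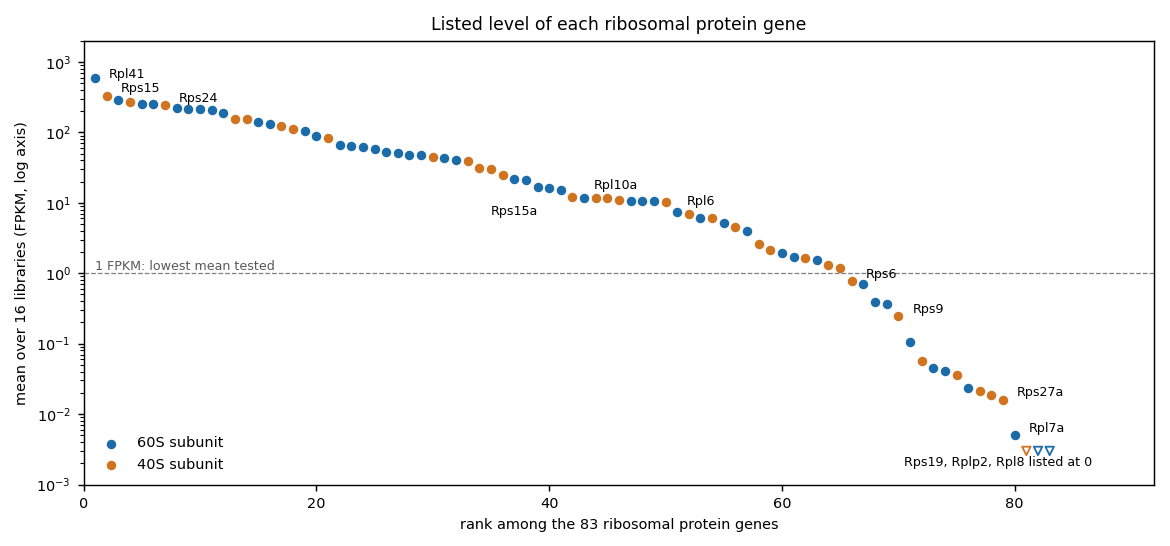
Mean over the 16 libraries of each of the 83 ribosomal protein genes, in FPKM on a log axis, ordered by rank, with 60S members in blue and 40S members in orange. The means run down from Rpl41 at 590.1 FPKM, 18 genes lie below the dashed line at 1 FPKM, and open triangles mark the 3 genes listed at 0 in every library.

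The number of copies that RefSeq names after a member (pseudogenes and like-named genes) did not follow the level: its median was 11.5 for the 18 genes below 1 FPKM, 15 for the 46 genes from 1 to 100 FPKM and 10 for the 19 genes at 100 FPKM or more. Across all 83 genes Spearman's rho of mean level and number of copies was -0.0664, a description across genes that share libraries. Because copies can take or share reads, the level of any 1 member is uncertain, and the comparisons below are between groups within a gene.

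The 3 highest members were Rpl41, Rps15 and Rplp1. Rpl41, the smallest protein of the ribosome and part of a bridge between the subunits, was at 608, 703, 617 and 1008 FPKM in HF_5AzaD libraries and at 501, 549, 806 and 997 in HF_PBS libraries. It was at 480.2, 424, 541 and 441 FPKM in HF libraries and at 411, 481, 462 and 411 in chow libraries. HF_5AzaD 7 and HF_PBS 4 were the highest of the 16, and HF_PBS overlapped with HF but not with chow. Rps15, a protein of the head of the small subunit, was at 362, 348, 341 and 490.1 FPKM in HF_5AzaD, 301, 281, 427 and 503 in HF_PBS, 317, 224, 353 and 256 in HF and 263, 285, 288 and 263 in chow. Its groups overlapped except HF_5AzaD and chow. Rplp1, one of the acidic proteins of the stalk that recruits translation factors, was at 352, 355, 260.1 and 463 FPKM in HF_5AzaD, 326, 241, 401 and 418 in HF_PBS, 229.8, 185, 263 and 223 in HF and 223, 203, 221 and 198 in chow. Both injected groups lay above chow for Rplp1, and both overlapped with HF.

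Some members were listed near 0 in some libraries and well above 0 in others of the same group. These members were picked out after their values were seen. Rpl30, whose protein binds its own message in yeast, had 0.824 FPKM in HF_PBS 1, 0.776, 0.669 and 0.569 in HF 5, 6 and 7 and 0.721 in chow 1, and between 8.56 and 36.5 in the other 11 libraries. Its fitted differences reached 2.79 for HF_5AzaD against HF with an SE of 1.00, and none passed the test. Rps6, the substrate of S6 kinase that is widely used as a readout of mTOR activity, was listed at 0 in 11 libraries. It was between 1.22 and 4.32 FPKM in the other 5, which were HF 5, 6 and 7, HF_5AzaD 5 and HF_PBS 3. Rps9 was at 3.97 FPKM in HF_PBS 1 and listed at 0 in the other 15. Rpl17, which lines the exit tunnel, ranged from 3.64 to 44.4 FPKM with no order by group. Rps4x was listed at or below 0.117 FPKM in all libraries while its copy Rps4y2 averaged 10.3 FPKM.

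The summed level of the 83 genes was higher in the injected groups. It was 5695, 5976, 5432 and 8125 FPKM in HF_5AzaD libraries 3, 5, 6 and 7 and 5305, 4987, 7269 and 8209 in HF_PBS libraries 1 to 4. In HF libraries 5 to 8 it was 4529, 3700, 5020 and 4363 FPKM, and in chow libraries 1 to 4 it was 4157, 4386, 4186 and 3773. All HF_5AzaD libraries lay above all HF and chow libraries, all HF_PBS libraries lay above all chow libraries, and HF_PBS 2 lay just below HF 7. As means, the sums were 6307 ± 1232 FPKM in HF_5AzaD, 6443 ± 1551 in HF_PBS, 4403 ± 545 in HF and 4126 ± 256 in chow (SD, n = 4 each). The sums were also set against the FPKM sum of loci with a symbol and a status of OK in every library. They came to 1.65% ± 0.314 of it in HF_5AzaD, 1.67% ± 0.361 in HF_PBS, 1.23% ± 0.155 in HF and 1.10% ± 0.0527 in chow. Rpl3 counts among the 83 genes but not in that total, because of its status. HF_PBS 3, HF_PBS 4 and HF_5AzaD 7 stood well above the other 5 injected libraries on both scales. In bulk tissue, more RNA per cell and more cells that hold it cannot be told apart.

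**Figure D2:**
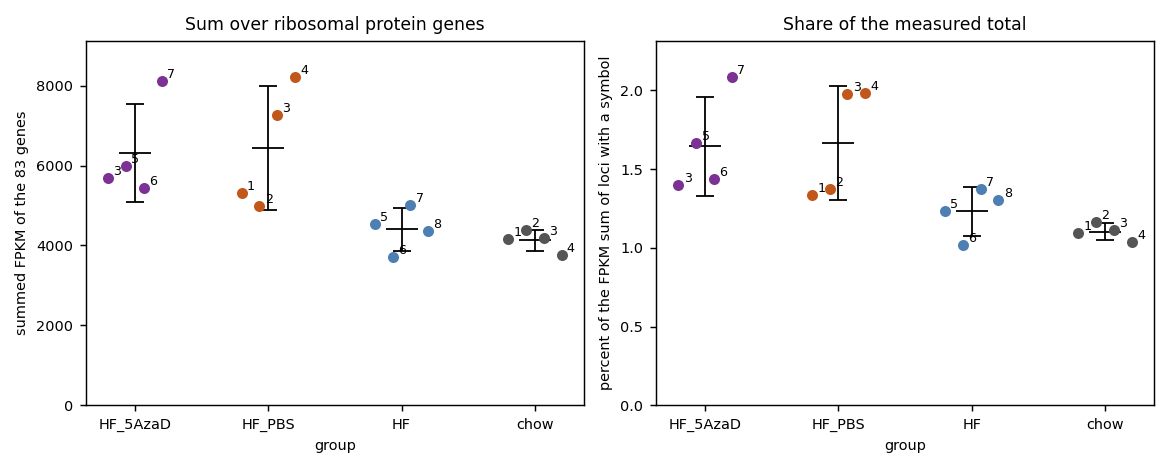
On the left is the summed FPKM of the 83 ribosomal protein genes in each library. On the right is that sum as a percent of the FPKM sum of loci with a symbol and a status of OK in every library. Points are libraries with their numbers, bars are the mean ± SD of 4 libraries, and HF_5AzaD 7, HF_PBS 3 and HF_PBS 4 stand at the top.

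Markers of 10 cell types and brain regions were scored in each library as the mean log2 deviation of a list from its average over the 16 libraries. In the same 3 libraries the cortical glutamatergic score was low and the microglial and astrocyte scores were high, while other lists went different ways. The score of the 5 cortical glutamatergic markers was -1.20 in HF_5AzaD 7 and -1.57 and -0.39 in HF_PBS 3 and 4, with a summed level of 1324 to 1719 FPKM in HF_5AzaD, 551 to 1525 in HF_PBS, 1547 to 3142 in HF and 2248 to 2428 in chow. It was also low in HF_5AzaD 5, at -1.05. The 7 microglial markers scored 0.41 in HF_5AzaD 7 and 0.72 and 0.29 in HF_PBS 3 and 4, with sums of 148 to 265 FPKM in HF_5AzaD, 129.7 to 298 in HF_PBS, 148 to 193 in HF and 132 to 141 in chow. HF_5AzaD 5 was as high for microglia, at 0.45. The 5 astrocyte markers tested scored 0.25 in HF_5AzaD 7 and 0.58 and 0.39 in HF_PBS 3 and 4, with sums over all 6 of 1069 to 1245 FPKM in HF_5AzaD, 1185 to 1368 in HF_PBS, 936 to 1407 in HF and 988 to 1114 in chow. HF_5AzaD 5, HF_PBS 2 and the uninjected HF 7 were close to that range for astrocytes, at 0.28, 0.38 and 0.24. The 8 oligodendrocyte markers scored -0.40 in HF_5AzaD 7 and 1.30 and 1.29 in HF_PBS 3 and 4, with sums of 2319 to 7159 FPKM in HF_5AzaD, 3386 to 13594 in HF_PBS, 3205 to 5169 in HF and 3606 to 5534 in chow, so HF_5AzaD 7 did not share the high score of the other two. The 8 striatal markers present scored -0.16 in HF_5AzaD 7 and 1.41 and 1.81 in HF_PBS 3 and 4, with sums of 207 to 359 FPKM in HF_5AzaD, 242 to 1010 in HF_PBS, 207 to 1305 in HF and 230.1 to 378 in chow. Their score was also high in HF_PBS 2, at 1.50, and highest in the uninjected HF 8, at 2.53. Of the 6 meningeal markers, Ogn and Col1a2 were near 0, and the score was 1.73 in HF_5AzaD 7 and -0.23 and -0.30 in HF_PBS 3 and 4, with 1.81 in HF_PBS 2 and sums of 38.4 to 194 FPKM in HF_5AzaD, 21.8 to 174 in HF_PBS, 13.2 to 33.3 in HF and 11.7 to 59.1 in chow. The remaining lists had no common direction in the 3 libraries apart from general neuronal and choroid plexus markers, which were below their average. Neuronal markers scored -0.16 in HF_5AzaD 7 and -0.63 and -0.26 in HF_PBS 3 and 4, choroid plexus markers -0.87 in HF_5AzaD 7 and -0.42 and -0.08 in HF_PBS 3 and 4, endothelial and mural markers 0.24 in HF_5AzaD 7 and 0.22 and -0.32 in HF_PBS 3 and 4, and red blood cell markers 0.99 in HF_5AzaD 7 and -1.25 and -0.02 in HF_PBS 3 and 4. Neuronal markers were present in every library. The part of these differences in the ribosomal protein results was not tested.

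Each gene was tested on log2(FPKM + 0.5) with limma, with 1 mean per group over all 16 libraries. Loci were tested where they averaged at least 1 FPKM and had a status of OK in every library, which left 64 of the 83 members (38 large-subunit and 26 small-subunit) among 14824 loci. A gene passed at an adjusted p (Benjamini-Hochberg over all 14824 loci) under 0.05. All adjusted p-values below are limma's, and all differences are on the log2(FPKM + 0.5) scale, which understates changes of low genes. The 18 genes below 1 FPKM were not tested, and Rpl3 was not because its value in HF_PBS 3 has the status FAIL.

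The first pair of comparisons asked what the diet did without injections and what 5-AzaD did beyond its vehicle, and ribosomal protein genes did not pass the test in either. In HF against chow 0 of 64 members passed in either direction, as did 0% of all loci, and 1 member had an unadjusted p under 0.05 in limma (1.56%, against 6.88% of all loci). The median difference of the 64 members was 0.05, and that of all loci was -0.01. The lowest p belonged to Rpl31, at the rim of the exit tunnel, with 1.19, 2.11, 3.41 and 2.27 FPKM in HF and 1.87, 1.07, 1.25 and 1.07 in chow. Its groups overlapped at HF 5, and the difference was 0.55 with a 95% interval of 0.03 to 1.08 (adjusted p = 0.696). For Rpl36, a 60S protein, HF was at 5.64, 7.20, 7.04 and 6.38 FPKM and chow at 4.86, 4.79, 4.36 and 4.31. All 4 HF libraries lay above all 4 chow libraries, with a difference of 0.47 (95% interval -0.03 to 0.98, adjusted p = 0.723). Rpl9, near the site where translation factors act on the large subunit, was at 1.81, 1.12, 1.56 and 1.61 FPKM in HF and 1.27, 1.25, 1.02 and 1.28 in chow, a difference of 0.24 with an interval of -0.04 to 0.52 (adjusted p = 0.728).

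In HF_5AzaD against HF_PBS 0 of 64 members passed, as did 0% of all loci, and 0 members had an unadjusted p under 0.05 in limma, against 7.42% of all loci. The median difference was -0.06, with all loci at 0.01. Rps10, a small-subunit protein at the messenger entry side, was at 9.04, 17.6, 13.3 and 9.08 FPKM in HF_5AzaD and 5.12, 5.08, 9.15 and 15.0 in HF_PBS, with HF_PBS 1 and 2 the lowest of the 16 libraries and HF_PBS 4 among the highest. The difference was 0.57 (95% interval -0.05 to 1.19, adjusted p = 0.704). Rpl36a, which lies near the exit site for transfer RNA, was at 1.39, 1.86, 1.70 and 1.85 FPKM in HF_5AzaD and 2.10, 1.97, 2.65 and 2.46 in HF_PBS. All 4 HF_5AzaD libraries lay below all 4 HF_PBS libraries, with a difference of -0.35 (-0.74 to 0.05, adjusted p = 0.726). Rpl27a, a core protein of the large subunit, was at 17.3, 17.5, 11.8 and 28.3 FPKM in HF_5AzaD and 17.6, 20.9, 28.3 and 30.5 in HF_PBS, and these overlapped (-0.40, interval -0.89 to 0.09, adjusted p = 0.752). Leaving out 1 library at a time kept the count at 0 in both comparisons.

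The other 4 comparisons set an injected group against an uninjected one, and ribosomal protein genes rose in each while none fell. Both injected groups ate the high fat diet, so the comparisons against chow differ in diet as well as in injections. In HF_5AzaD against HF 19 of 64 members rose (29.7%, against 6.61% of all loci called higher) and 0 fell (against 7.64% called lower). In HF_5AzaD against chow 27 rose (42.2%, against 7.18%) and 0 fell (against 9.11%). In HF_PBS against HF 32 rose (50%, against 10.7%) and 0 fell (against 13.2%), and in HF_PBS against chow 40 rose (62.5%, against 12.4%) and 0 fell (against 15.7%). The median member differed by 0.47, 0.52, 0.54 and 0.59 in that order of comparisons, while the median of all loci lay between 0.00 and 0.02. HF_5AzaD against HF and HF_5AzaD against chow share their injected libraries, as do the HF_PBS pair, and comparisons with the same uninjected group share that group, so the counts are not independent of one another. Large-subunit genes rose in 12 of 38 and small-subunit genes in 7 of 26 in HF_5AzaD against HF, 19 and 8 in HF_5AzaD against chow, 24 and 8 in HF_PBS against HF, and 30 and 10 in HF_PBS against chow. The median of the large-subunit genes was 0.49, 0.54, 0.60 and 0.66 in these comparisons, and that of the small-subunit genes 0.35, 0.42, 0.40 and 0.42. The difference between the subunits was not tested.

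**Figure D3:**
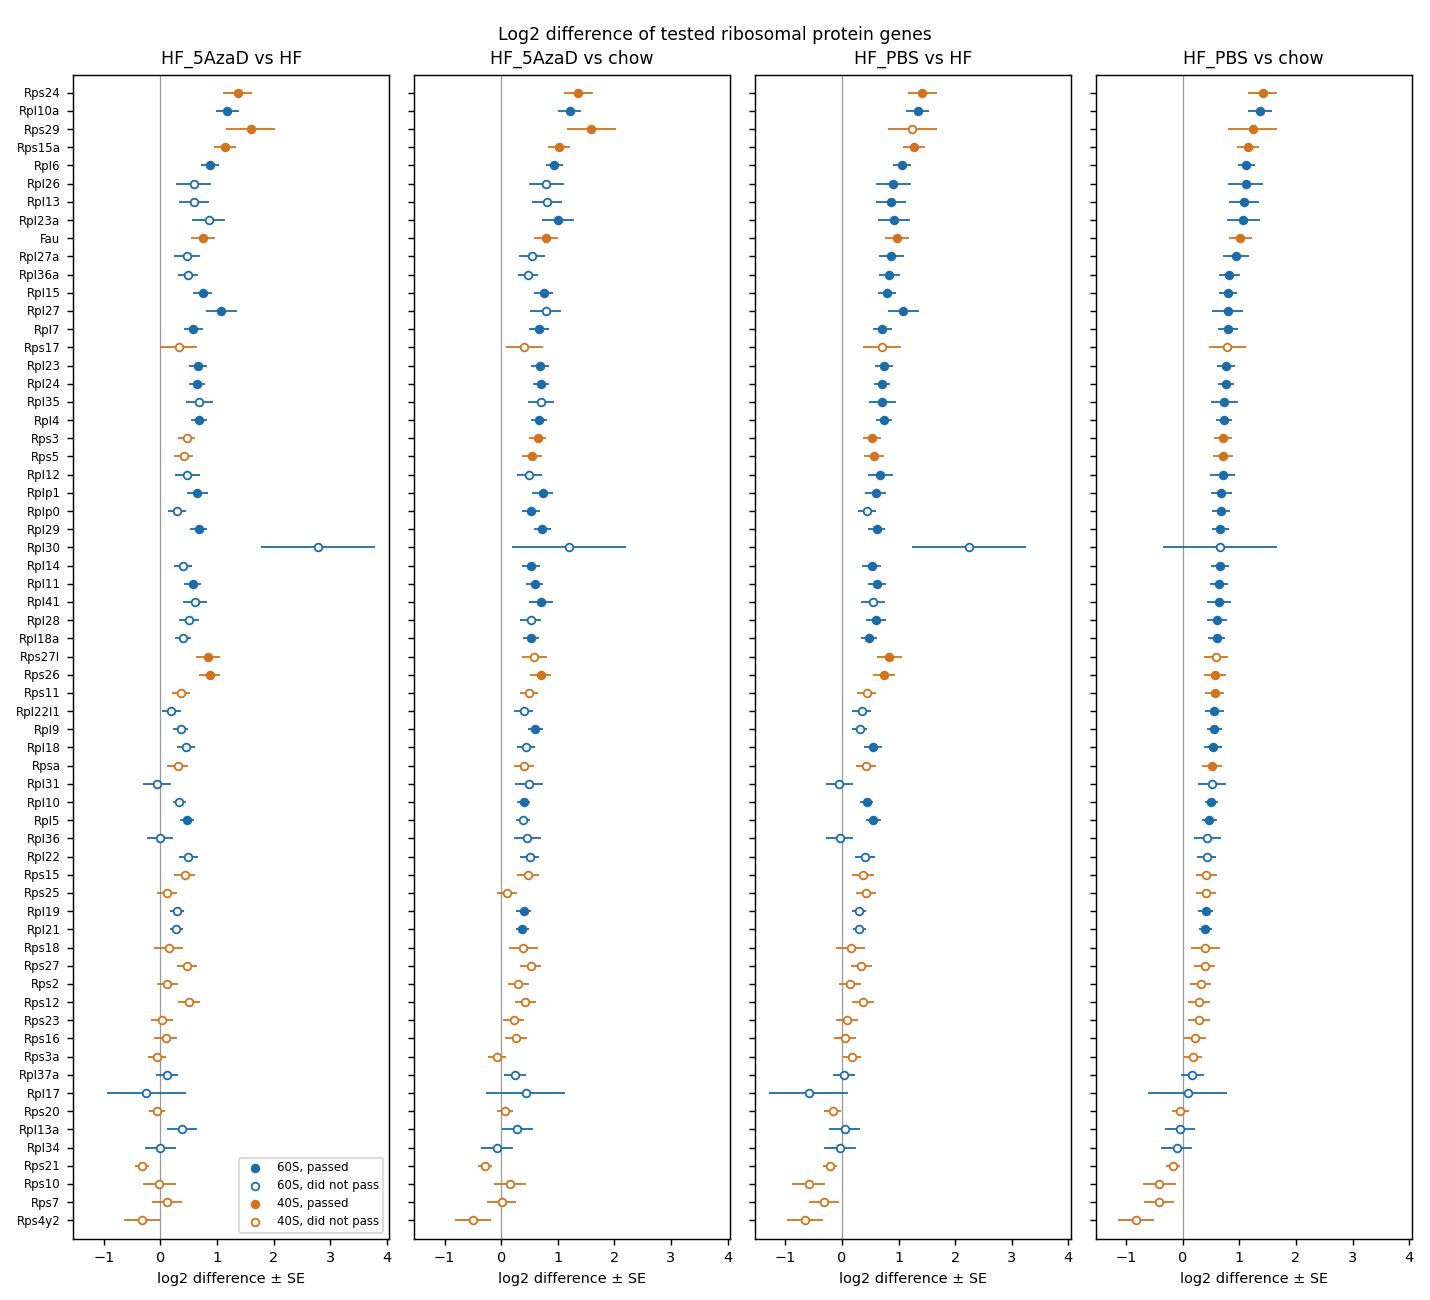
Log2 difference ± SE of tested ribosomal protein genes in the 4 comparisons of an injected with an uninjected group, ordered by HF_PBS against chow, with 60S members in blue and 40S members in orange. Filled points passed the test, all of them to the right of 0, and open points did not; 1 tested gene is not drawn.

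Individual libraries bear on these counts, and on the counts over all loci with them. Without HF_5AzaD 7, HF_5AzaD against HF held 9 of 158 higher loci and HF_5AzaD against chow 10 of 179, where the first number counts members. With all libraries these were 19 of 980 and 27 of 1064. Without HF 6, HF_5AzaD against HF held 6 of 150. Without chow 2, chow 3 or chow 4, HF_5AzaD against chow held 14 of 366, 12 of 287 and 9 of 320. HF_PBS against HF held 18 of 643 without HF 6, 21 of 1158 without HF_PBS 3 and 16 of 641 without HF_PBS 4, against 32 of 1580 with all. HF_PBS against chow held 25 of 1031 without chow 4 and 23 of 718 without HF_PBS 4, against 40 of 1842 with all. Fitted on the pair of groups alone, HF_5AzaD against HF held 0 of 10 and HF_PBS against HF 17 of 560. The counts over all loci fell with those of the members in each of these.

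Without HF_PBS 3, HF_PBS 4 and HF_5AzaD 7 together, an alternative chosen after seeing the data because their sums were highest, HF_5AzaD against HF held 16 higher members of 362 higher loci and HF_5AzaD against chow 20 of 446. HF_PBS against HF then held 8 of 202 and HF_PBS against chow 7 of 129. The median members differed by 0.34, 0.42, 0.25 and 0.33 in that order. Leaving out the highest injected libraries lowers such differences by construction.

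Across all 8 injected and all 8 uninjected libraries, 17 of the 64 members (26.6%) had every injected library above every uninjected one, against 2.92% of all loci. None of the 64 had every injected library below, against 5.05% of all loci. The uninjected side holds both diets, the injected side the high fat diet alone. Among the 17 were Rpl4, Rpl5, Rpl6, Rpl7, Rpl10a, Rpl11, Rpl15, Rpl18, Rpl23, Rpl24 and Rpl29 in the large subunit and Rps3, Rps15a, Rps24, Rps29 and Fau in the small one. Set against each other without a shared library, the 19 members of HF_5AzaD against HF and the 40 of HF_PBS against chow had 18 in common, 94.7% of the 19 and 45% of the 40. Over all loci called higher the same pair had 612 in common, 62.4% of 980 and 33.2% of 1842. Likewise the 27 of HF_5AzaD against chow and the 32 of HF_PBS against HF had 21 in common, 77.8% and 65.6%, and over all loci 576, which were 54.1% of 1064 and 36.5% of 1580. All of these comparisons use 1 estimate of the spread, from all 16 libraries.

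Among small-subunit genes Rps24, whose protein is needed to process the precursor of the small subunit's RNA, had the largest called difference in both HF_PBS comparisons. It was at 297, 310.3, 301 and 479.7 FPKM in HF_5AzaD and 282, 259, 402 and 518 in HF_PBS, against 131, 88.8, 173 and 148 in HF and 150.0, 168, 119 and 101 in chow. The lowest injected library, at 259, lay well above the highest uninjected one, at 173. The log2 difference was 1.37 (SE 0.255, adjusted p = 0.00877) for HF_5AzaD against HF and 1.36 (SE 0.255, adjusted p = 0.00918) against chow. For HF_PBS it was 1.42 (SE 0.255, adjusted p = 0.00354) against HF and 1.41 (SE 0.255, adjusted p = 0.00335) against chow.

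Rps15a, a protein of the body of the small subunit, was at 12.7, 16.9, 11.6 and 24.3 FPKM in HF_5AzaD and 15.5, 14.0, 18.9 and 21.5 in HF_PBS, against 7.68, 6.62, 5.88 and 7.42 in HF and 7.17, 7.88, 8.40 and 6.54 in chow. Again all 8 injected libraries lay above all uninjected ones. It rose by 1.14 (SE 0.194, adjusted p = 0.00689) in HF_5AzaD against HF, by 1.02 against chow (adjusted p = 0.00954), and in HF_PBS by 1.27 (SE 0.194, adjusted p = 0.00212) against HF and 1.16 against chow (adjusted p = 0.00286).

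Rps29, a small zinc-binding protein of the head, was the most uneven of these genes. It was at 41.4, 42.7, 28.8 and 190.5 FPKM in HF_5AzaD and 43.2, 29.1, 47.7 and 60.3 in HF_PBS, against 15.5, 16.5, 25.8 and 16.5 in HF and 21.4, 18.3, 19.9 and 14.1 in chow. All injected libraries lay above all uninjected ones, the 2 injected groups overlapped, as did HF and chow, and HF_5AzaD 7 was above all others by a wide gap. Its difference was 1.59 (SE 0.433, adjusted p = 0.0279) in HF_5AzaD against HF and 1.59 (SE 0.433, adjusted p = 0.0279) against chow. In HF_PBS it was 1.24 (SE 0.433, adjusted p = 0.0505) against HF, which did not pass, and 1.24 (SE 0.433, adjusted p = 0.0452) against chow. The call in HF_PBS against chow was lost in 12 of the 31 alternatives, among them each of the 4 that leave out a chow library. That in HF_5AzaD against HF was lost in 5 of 31, among them those without HF 5, HF 6 or HF 8, and that in HF_5AzaD against chow in 4 of 30, among them those without chow 2, chow 3 or chow 4.

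**Figure D4:**
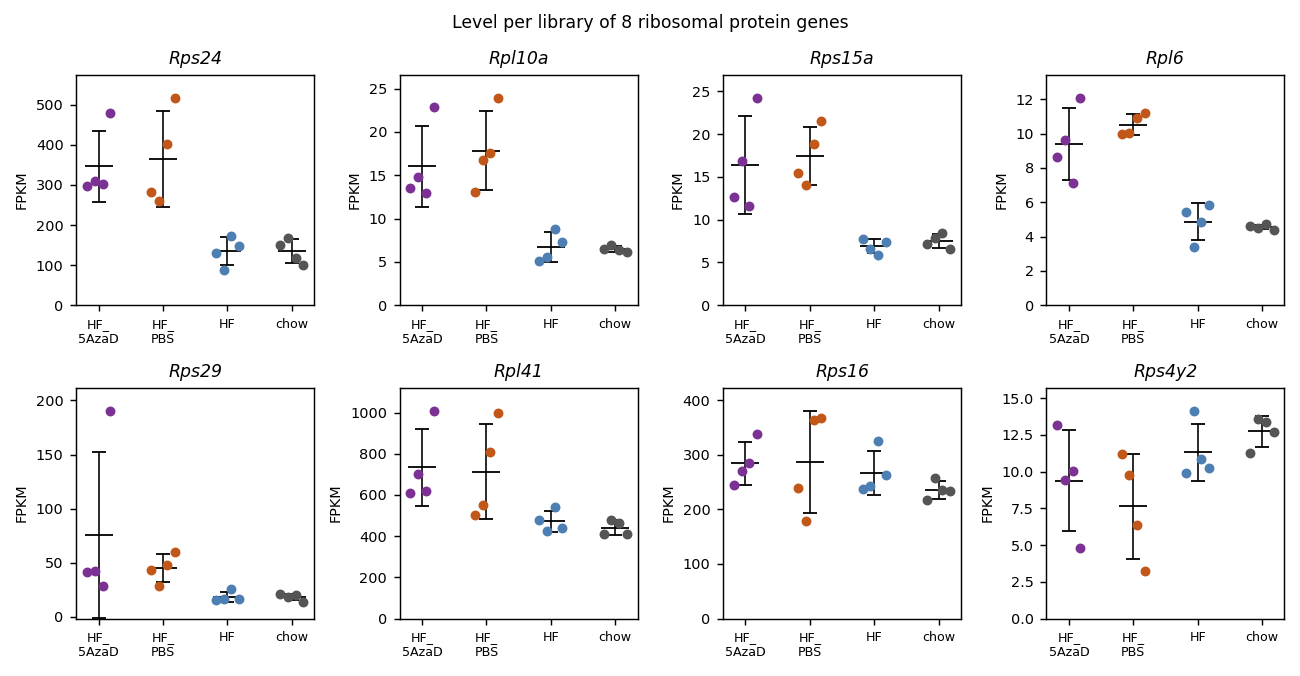
FPKM per library of 8 ribosomal protein genes, with points for libraries and bars for the mean ± SD of 4 libraries per group. Rps24, Rpl10a, Rps15a, Rpl6 and Rps29 have every HF_5AzaD and HF_PBS library above every HF and chow library, whereas Rpl41, Rps16 and Rps4y2 overlap.

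Fau, which encodes a ubiquitin-like protein fused to a ribosomal protein, averaged 30.1 ± 7.68 FPKM in HF_5AzaD and 35.2 ± 7.17 in HF_PBS, against 17.9 ± 4.96 in HF and 16.9 ± 1.81 in chow. Its 8 injected libraries, from 24.0 FPKM, lay above the 8 uninjected ones, up to 23.7. It rose by 0.75 and 0.79 in HF_5AzaD against HF and chow (adjusted p = 0.0316 and 0.0264) and by 0.98 and 1.02 in HF_PBS (adjusted p = 0.00642 and 0.00524). Rpsa, also known as the laminin receptor precursor, averaged 122 ± 23.2 FPKM in HF_5AzaD, 134 ± 36.8 in HF_PBS, 97.6 ± 13.8 in HF and 91.2 ± 10.9 in chow. It passed in HF_PBS against chow (0.52, adjusted p = 0.0477), where the groups still overlapped, and in no other comparison. Rps27a, which encodes ubiquitin fused to a ribosomal protein, was listed at 0 in 13 libraries and at or below 0.149 FPKM in the others, so the usual transcript is hardly represented.

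In the large subunit Rpl10a, the protein of the flexible L1 stalk where transfer RNA leaves and a common handle for purifying ribosomes, had the largest called difference. It was at 13.5, 14.8, 12.9 and 22.9 FPKM in HF_5AzaD and 13.0, 16.8, 17.6 and 24.0 in HF_PBS, against 5.14, 5.56, 8.82 and 7.34 in HF and 6.46, 6.90, 6.34 and 6.14 in chow. No injected library lay below 12.9 FPKM and no uninjected one above 8.82. Its difference was 1.19 (SE 0.204, adjusted p = 0.00689) in HF_5AzaD against HF and 1.21 (SE 0.204, adjusted p = 0.00695) against chow, and 1.34 (SE 0.204, adjusted p = 0.00212) and 1.36 (SE 0.204, adjusted p = 0.00230) in HF_PBS against HF and chow.

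Rpl6, on the solvent side of the large subunit, was at 8.64, 9.62, 7.09 and 12.1 FPKM in HF_5AzaD and 9.94, 10.0, 10.9 and 11.2 in HF_PBS, against 5.45, 3.38, 4.82 and 5.83 in HF and 4.62, 4.50, 4.72 and 4.39 in chow. The HF_PBS libraries lay close together, and all injected libraries were above all uninjected ones. The rise was 0.88 (SE 0.154, adjusted p = 0.00759) in HF_5AzaD against HF, 0.94 against chow (adjusted p = 0.00689), 1.06 in HF_PBS against HF (adjusted p = 0.00212) and 1.12 against chow (adjusted p = 0.00211).

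Rpl27, mutated in some patients with Diamond-Blackfan anaemia, was at 45.6, 41.0, 42.2 and 91.3 FPKM in HF_5AzaD and 72.7, 46.0, 51.2 and 43.2 in HF_PBS, against 23.8, 21.8, 22.5 and 29.8 in HF and 26.8, 51.2, 21.4 and 27.0 in chow. HF lay below both injected groups, but chow 2 lay among the injected libraries. It rose against HF, by 1.08 (SE 0.279, adjusted p = 0.0237) in HF_5AzaD and 1.09 (SE 0.279, adjusted p = 0.0140) in HF_PBS, and against chow it passed in HF_PBS (0.79, adjusted p = 0.0459) and not in HF_5AzaD (0.79, adjusted p = 0.0645). The call in HF_5AzaD against HF was lost without HF_5AzaD 7, at 0.81 (adjusted p = 0.0788), and without HF 6, at 1.03 (adjusted p = 0.0787).

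Rpl23a, at the mouth of the exit tunnel where signal recognition particle docks, was at 64.8, 65.1, 32.4 and 63.9 FPKM in HF_5AzaD and 58.3, 47.4, 46.3 and 82.1 in HF_PBS, against 23.0, 22.6, 34.1 and 45.2 in HF and 26.5, 40.2, 22.5 and 21.5 in chow. HF_5AzaD 6 was the 1 injected library within the range of the uninjected ones. The gene passed in HF_5AzaD against chow (1.01, adjusted p = 0.0322), in HF_PBS against HF (0.92, 0.0327) and in HF_PBS against chow (1.07, 0.0153). The call in HF_5AzaD against chow was lost in 8 of the 30 alternatives, among them those without chow 1, chow 3 or chow 4 and those without HF_5AzaD 3, 5 or 7 (adjusted p of 0.0109 to 0.313 over the 30). In HF_5AzaD against HF its difference was 0.85 (adjusted p = 0.0593).

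The factor-recruiting stalk is built from Rplp0, its anchor, with Rplp1 and Rplp2. Rplp0 was at 190.3, 229, 209 and 279 FPKM in HF_5AzaD and 199, 201, 298 and 320.5 in HF_PBS, against 193, 159, 199 and 184 in HF and 154, 163, 157 and 149.6 in chow. Every injected library was above every chow library, and both injected groups overlapped with HF. It rose against chow by 0.52 (SE 0.159, adjusted p = 0.0392) in HF_5AzaD and 0.67 (SE 0.159, adjusted p = 0.00895) in HF_PBS, and against HF it did not pass (0.29 and 0.44, adjusted p = 0.215 and 0.0568). Rplp1, given above, rose by 0.65 and 0.73 in HF_5AzaD against HF and chow (adjusted p = 0.0338 and 0.0224). In HF_PBS it rose by 0.60 and 0.68 (adjusted p = 0.0314 and 0.0166). Rplp2 was listed at 0 in all libraries on both of its loci, so the stalk cannot be compared as a whole.

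Rpl5 and Rpl11, which join the smallest ribosomal RNA and can bind the p53 regulator Mdm2, are given after their values were seen. Rpl5 averaged 73.4 ± 10.5 FPKM in HF_5AzaD and 77.9 ± 11.7 in HF_PBS, against 52.7 ± 6.39 in HF and 55.9 ± 5.24 in chow. Rpl11 averaged 61.5 ± 8.71 and 65.0 ± 17.0 FPKM in HF_5AzaD and HF_PBS, against 41.2 ± 4.73 in HF and 40.4 ± 1.82 in chow. For both, all injected libraries lay above all uninjected ones. Rpl11 passed in all 4 of these comparisons, with differences of 0.57 to 0.64, and Rpl5 in 3, with 0.38 (adjusted p = 0.0560) in HF_5AzaD against chow.

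Other members that passed in all 4 of these comparisons are given after their values were seen. Rps26, where the message leaves the small subunit, averaged 6.05 ± 1.03 FPKM in HF_5AzaD and 5.55 ± 1.36 in HF_PBS, against 3.09 ± 0.656 in HF and 3.54 ± 0.654 in chow, with rises of 0.57 to 0.87 (adjusted p of 0.0135 to 0.0367). Rpl4, which lines the narrow part of the exit tunnel, averaged 171 ± 24.1 FPKM in HF_5AzaD and 180.4 ± 37.1 in HF_PBS, against 107 ± 11.8 in HF and 107 ± 6.95 in chow, with rises of 0.67 to 0.74 (adjusted p of 0.00408 to 0.0126). For Rpl4 the 8 injected libraries lay above the 8 uninjected ones. Rps23, which lies at the decoding site, passed in none: it averaged 84.6 ± 9.70 FPKM in HF_5AzaD and 91.4 ± 28.2 in HF_PBS, against 83.8 ± 15.6 in HF and 72.3 ± 4.49 in chow, with differences of 0.03 to 0.29.

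Among the most abundant genes, Rpl41 rose against chow, by 0.71 in HF_5AzaD (adjusted p = 0.0360) and 0.64 in HF_PBS (adjusted p = 0.0339), and did not pass against HF (0.61 and 0.55, adjusted p = 0.0607 and 0.0684). Rps15 passed in none of the 4, with differences of 0.37 to 0.47 and adjusted p of 0.0948 to 0.164. Rps16, whose tail reaches into the decoding site, is named after its values were seen. It averaged 285 ± 39.1 FPKM in HF_5AzaD, 287 ± 93.4 in HF_PBS, 267 ± 40.7 in HF and 236 ± 16.4 in chow, and its largest of the 4 differences was 0.26 (95% interval -0.16 to 0.68).

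The genes with the smallest average difference between the injected and uninjected groups were Rpl34, Rps20 and Rps3a. Rpl34, a 60S protein, was at 11.8, 14.7, 14.1 and 25.0 FPKM in HF_5AzaD and 11.3, 10.3, 22.1 and 21.4 in HF_PBS, against 12.9, 18.2, 17.3 and 15.0 in HF and 14.0, 24.4, 15.6 and 14.1 in chow. HF_5AzaD 7 and HF_PBS 3 and 4 were again among the highest, together with chow 2. Rps20, in the head of the small subunit, ranged from 2.07 to 3.47 FPKM over the injected libraries and from 2.25 to 3.28 over the uninjected ones. Rps3a ranged from 1.34 to 2.66 and from 1.32 to 1.96 FPKM. The 95% intervals were -0.70 to 0.48 for Rpl34, -0.35 to 0.27 for Rps20 and -0.16 to 0.52 for Rps3a in HF_PBS against chow.

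A few genes stood lower in the injected groups without passing, and they are named after their values were seen. Rps4y2, a copy of Rps4x, was at 13.2, 9.44, 10.1 and 4.82 FPKM in HF_5AzaD and 11.2, 9.77, 6.40 and 3.22 in HF_PBS, against 9.92, 14.1, 10.9 and 10.3 in HF and 11.3, 13.6, 13.4 and 12.7 in chow. The lowest values were in HF_PBS 4, HF_5AzaD 7 and HF_PBS 3, and all HF_PBS libraries lay below all chow libraries. In HF_PBS against chow its difference was -0.83 (SE 0.316, adjusted p = 0.0628), and it passed as lower in 3 of the alternatives that leave out 1 library, among them the one without HF_PBS 1 (-1.04, adjusted p = 0.0260). A lesser locus with the same symbol averaged 3.03 FPKM and did not share the low values, with its highest levels in HF_5AzaD 7 and HF_PBS 3. That locus was at 1.70, 1.21, 2.08 and 7.82 FPKM in HF_5AzaD and 3.28, 3.55, 6.62 and 3.48 in HF_PBS. In HF it was at 1.44, 1.12, 3.82 and 2.50 FPKM, and in chow at 2.30, 3.66, 2.52 and 1.43. Rps21 averaged 10.2 ± 1.73 FPKM in HF_5AzaD, 11.0 ± 1.15 in HF_PBS, 12.8 ± 1.73 in HF and 12.4 ± 0.357 in chow, and its difference was -0.32 (SE 0.121, adjusted p = 0.0825) in HF_5AzaD against HF. It passed as lower without HF 8 (-0.42, adjusted p = 0.0453). For Rps10 the difference was -0.59 (SE 0.289, adjusted p = 0.150) in HF_PBS against HF, and it passed as lower without HF_PBS 4 (-0.89, adjusted p = 0.0316).

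Several members have a close copy that is used in particular tissues. Rps27l, a copy of Rps27 that p53 induces in human cells, was at 7.08, 8.73, 6.94 and 12.01 FPKM in HF_5AzaD and 5.59, 7.14, 12.2 and 10.4 in HF_PBS, against 5.18, 4.17, 5.44 and 3.52 in HF and 5.43, 5.58, 5.79 and 5.11 in chow. Both injected groups lay above HF, and HF_PBS overlapped with chow. It rose against HF, by 0.84 (SE 0.217, adjusted p = 0.0237) in HF_5AzaD and 0.84 (SE 0.217, adjusted p = 0.0147) in HF_PBS, and did not pass against chow (0.59 and 0.59, adjusted p = 0.0736 and 0.0566). Rps27 itself averaged 36.8 ± 6.57 FPKM in HF_5AzaD and 34.1 ± 9.15 in HF_PBS, against 26.2 ± 1.76 in HF and 25.5 ± 4.42 in chow, and passed in none (0.34 to 0.52, adjusted p of 0.0637 to 0.193). The difference between the copies was not tested.

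Rpl22l1, a copy of Rpl22, averaged 23.7 ± 4.75 FPKM in HF_5AzaD and 26.3 ± 4.78 in HF_PBS, against 20.5 ± 3.20 in HF and 17.7 ± 2.84 in chow. It passed in HF_PBS against chow (0.55, adjusted p = 0.0240) and in no other. Rpl22 averaged 18.3 ± 5.63 and 16.9 ± 2.83 FPKM in HF_5AzaD and HF_PBS, against 12.5 ± 1.61 in HF and 12.4 ± 0.797 in chow, so that the copy was listed above its parent gene in all 4 groups. Rpl22 passed in none, with adjusted p of 0.0578 to 0.0943 in the injected comparisons. Rpl3l, the muscle copy of Rpl3, stayed at or below 1.72 FPKM, and Rpl39l, the testis copy of Rpl39, at or below 1.62, while Rpl39 was listed at 0 in 10 libraries and at most at 0.351 FPKM.

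Rpl3, which reaches the site of peptide bond formation, was at 228, 267, 192 and 280.3 FPKM in HF_5AzaD and 222, 212, 267 and 281 in HF_PBS, against 197, 161, 197 and 217 in HF and 186, 165, 175 and 169.8 in chow. All injected libraries except HF_5AzaD 6 and HF_PBS 2 lay above all uninjected ones, and the gene was not tested because of the status of HF_PBS 3. Rpl7 averaged 104 ± 24.6 FPKM in HF_5AzaD and 114 ± 27.3 in HF_PBS, against 68.6 ± 9.43 in HF and 64.5 ± 4.23 in chow. It rose in all 4 comparisons, by 0.58 to 0.79 (adjusted p of 0.00649 to 0.0390). Rpl10, one of the last proteins to join the large subunit, averaged 68.0 ± 4.09 and 73.8 ± 13.1 FPKM in HF_5AzaD and HF_PBS, against 53.9 ± 6.13 in HF and 51.3 ± 1.37 in chow. It passed in 3 of the 4 comparisons, with 0.34 and an adjusted p of 0.0602 in HF_5AzaD against HF.

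Members with and without a TOP-type start, as defined for the sequences above, were both among the genes that rose. In HF_5AzaD against HF 3 of 20 tested members with such a start rose, with a median difference of 0.35, and 11 of 31 others with a promoter rose, with a median of 0.48. In HF_5AzaD against chow the counts were 8 of 20 and 12 of 31 (medians 0.50 and 0.50). In HF_PBS against HF 7 and 18 rose (medians 0.36 and 0.56), and in HF_PBS against chow 10 and 21 (medians 0.46 and 0.64). The shares of all loci called higher were 6.61, 7.18, 10.7 and 12.4% in that order of comparisons. The counts by start are descriptions, the annotated start may differ from the start used in cortex, and the difference between the classes was not tested.

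Other genes of translation were followed in lists taken by symbol. Mitochondrial ribosomal proteins, which make the ribosome inside mitochondria, also rose with 0 falling: 18 of 66 tested in HF_5AzaD against HF, 9 in HF_5AzaD against chow, 29 in HF_PBS against HF and 17 in HF_PBS against chow, with medians of 0.33, 0.19, 0.33 and 0.25. These were 27.3, 13.6, 43.9 and 25.8% of the list in that order, and the shares of all loci called higher, to be read beside each list below too, were 6.61, 7.18, 10.7 and 12.4%, with 7.64, 9.11, 13.2 and 15.7% called lower. Mrpl41 had the lowest p in each, and averaged 48.5 ± 4.46 FPKM in HF_5AzaD and 55.2 ± 5.42 in HF_PBS, against 29.9 ± 2.01 in HF and 35.1 ± 2.63 in chow. It rose by 0.69 in HF_5AzaD against HF (adjusted p = 0.00286) and by 0.64 in HF_PBS against chow (adjusted p = 0.00211). None of the 5 lists had a member past the test in HF against chow or in HF_5AzaD against HF_PBS, where 0% of all loci passed.

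Of 22 other genes known for TOP messages, 4 rose and 1 fell in HF_5AzaD against HF, 7 rose and 0 fell in HF_5AzaD against chow, 9 and 1 in HF_PBS against HF and 9 and 0 in HF_PBS against chow, with medians of 0.25, 0.17, 0.35 and 0.30. The rises were 18.2, 31.8, 40.9 and 40.9% of the list, against 6.61, 7.18, 10.7 and 12.4% of all loci. Eef1a1, Eef1b2, Eef1d, Eef1g and Eef2 are also among the elongation factors below, and Eif3e, Eif3f, Eif3h and Eif4b among the initiation factors. The counts of these lists therefore overlap, and the 1 fall against HF was Eef2 in both injected groups. Tpt1, the translationally controlled tumour protein, averaged 208 ± 54.8 FPKM in HF_PBS, against 113 ± 12.6 in chow, a rise of 0.85 (adjusted p = 0.00320). Gnb2l1, the older symbol of the 40S scaffold protein Rack1, averaged 97.8 ± 6.63 FPKM in HF_5AzaD and 100.3 ± 13.5 in HF_PBS, against 94.4 ± 7.59 in HF and 91.0 ± 7.21 in chow, and passed in none; it is given after its values were seen.

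Of 11 elongation and termination factors, 1 rose and 1 fell in HF_5AzaD against HF, 3 and 0 in HF_5AzaD against chow, 4 and 1 in HF_PBS against HF, and 4 and 1 in HF_PBS against chow. In HF_5AzaD against HF 1 of 11 is 9.09% in each direction, near the 6.61% higher and 7.64% lower of all loci, and the rises in the other 3 were 27.3, 36.4 and 36.4%, against 7.18, 10.7 and 12.4%. The 1 rise in HF_5AzaD against HF was Eef1e1, a protein of the complex that charges transfer RNAs. It rose by 0.58 there (adjusted p = 0.0158) and by 0.60 in HF_PBS against chow (adjusted p = 0.00627). Eef2, the factor that moves the ribosome along the message, averaged 361 ± 14.3 FPKM in HF_5AzaD and 362 ± 16.4 in HF_PBS, against 450.4 ± 45.4 in HF. It fell against HF by 0.32 in HF_5AzaD (adjusted p = 0.0306) and by 0.31 in HF_PBS (adjusted p = 0.0214). Eef1a2, the neuronal and muscle form of the factor that delivers transfer RNA, averaged 442 ± 119 FPKM in HF_PBS, against 630.2 ± 22.6 in chow, and fell by 0.55 (adjusted p = 0.0242).

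Of 47 initiation factor symbols 5 rose and 4 fell in HF_5AzaD against HF, 4 and 4 in HF_5AzaD against chow, 11 and 7 in HF_PBS against HF, and 7 and 10 in HF_PBS against chow, with medians of 0.08, 0.07, 0.11 and 0.12. The rises were 10.6, 8.51, 23.4 and 14.9% of the list and the falls 8.51, 8.51, 14.9 and 21.3%, against 6.61, 7.18, 10.7 and 12.4% of all loci called higher and 7.64, 9.11, 13.2 and 15.7% called lower, so both shares lay near those of all loci in the HF_5AzaD comparisons. The 13 subunits of eIF3, the largest initiation complex, held 1, 2, 5 and 4 of the rises and 0 falls in that order, 7.69, 15.4, 38.5 and 30.8% of the subunits. Eif3k averaged 90.3 ± 12.8 FPKM in HF_5AzaD, against 66.2 ± 2.47 in chow, a rise of 0.43 (adjusted p = 0.0231), and Eif2s1, part of the factor that brings the first transfer RNA, averaged 26.7 ± 3.37 FPKM in HF_PBS, against 19.0 ± 1.44 in chow, a rise of 0.48 (adjusted p = 0.00575). Some of the falls were in symbols that are not initiation factors by function. In the same order of comparisons, the 4 Eif2c symbols held 1, 1, 2 and 1 of the falls, and Eif4enif1 held 1 in each. The other falls were in other symbols of the list, which were not sorted by function. Among them was Eif4e2, which fell by 0.42 in HF_5AzaD against chow (adjusted p = 0.0116). Eif2c3 is an older name of an Argonaute gene, and it averaged 5.43 ± 1.06 FPKM in HF_5AzaD and 4.35 ± 0.567 in HF_PBS, against 10.4 ± 3.04 in HF. It fell by 0.85 in HF_5AzaD (adjusted p = 0.0129) and by 1.13 in HF_PBS (adjusted p = 0.00248). Eif4enif1, a transporter of eIF4E linked to storage of messages, fell by 0.77 in HF_PBS against chow (adjusted p = 0.00286).

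Of 57 genes of ribosome biogenesis, 8 rose and 2 fell in HF_5AzaD against HF, 13 and 2 in HF_5AzaD against chow, 14 and 4 in HF_PBS against HF, and 17 and 4 in HF_PBS against chow, with medians of 0.17, 0.12, 0.18 and 0.17. The rises were 14, 22.8, 24.6 and 29.8% of the list, against 6.61, 7.18, 10.7 and 12.4% of all loci, and the falls 3.51, 3.51, 7.02 and 7.02%, against 7.64, 9.11, 13.2 and 15.7%. Utp11l, of the particle that processes the small subunit's RNA, averaged 23.7 ± 3.29 FPKM in HF_5AzaD and 26.1 ± 0.854 in HF_PBS, against 16.9 ± 1.64 in HF and 18.1 ± 0.861 in chow. It rose by 0.47 in HF_5AzaD against HF (adjusted p = 0.0116) and by 0.51 in HF_PBS against chow (adjusted p = 0.00378). Npm1, a nucleolar chaperone that is also in the TOP list, averaged 27.6 ± 7.28 FPKM in HF_5AzaD and 31.1 ± 5.32 in HF_PBS, against 17.0 ± 2.47 in HF and 16.8 ± 1.06 in chow. It rose in all 4 comparisons, by 0.66 to 0.86 (adjusted p of 0.00390 to 0.0210). Genes tied to RNA polymerase I, which makes ribosomal RNA, went both ways. Taf1d, of the factor that brings that polymerase to its promoter, rose against chow by 0.88 in HF_5AzaD (adjusted p = 0.0113) and 0.70 in HF_PBS (adjusted p = 0.0118), and it did not pass against HF (0.44 and 0.26, adjusted p = 0.103 and 0.305). Ncl, the nucleolar protein nucleolin, averaged 32.5 ± 1.90 FPKM in HF_5AzaD, against 39.8 ± 2.09 in HF and 40.4 ± 1.09 in chow, falling by 0.29 (adjusted p = 0.0226) and 0.31 (adjusted p = 0.0176). In HF_PBS it did not pass (-0.15 against HF and -0.17 against chow, adjusted p = 0.143 and 0.0841). Rrn3, a factor of RNA polymerase I, averaged 2.48 ± 0.560 FPKM in HF_PBS, against 4.06 ± 0.670 in HF, and fell by 0.62 (adjusted p = 0.0132), and Tcof1, which helps that polymerase, averaged 4.32 ± 0.728 FPKM in HF_PBS, against 6.76 ± 0.851 in chow, and fell by 0.59 (adjusted p = 0.00859).

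**Figure D5:**
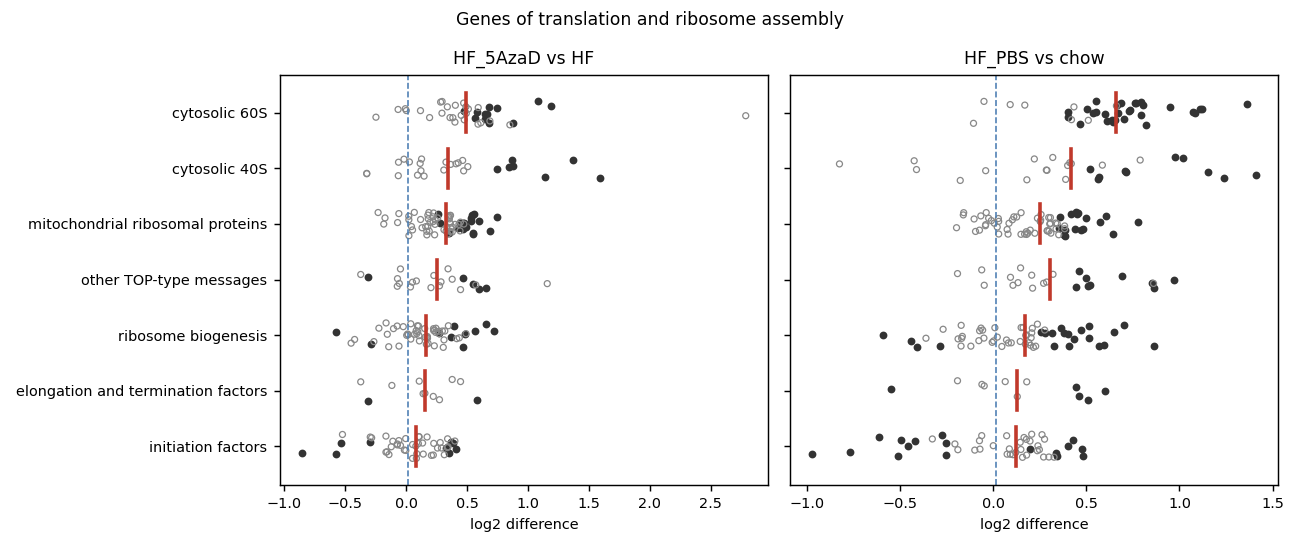
Log2 differences in HF_5AzaD against HF (left) and HF_PBS against chow (right), which share no library, for the tested genes of the 60S and 40S subunits and of 5 lists. Filled points passed the test, open points did not, red bars are medians and the dashed blue line is the median of all loci; cytosolic and mitochondrial ribosomal protein genes that passed all lie above 0, while the factor lists hold points on both sides.

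Among the cortical glutamatergic markers, Camk2a, the abundant kinase of excitatory synapses, is given after its values were seen. It averaged 1002 ± 158 FPKM in HF_5AzaD and 714 ± 252 in HF_PBS, against 1583 ± 511 in HF and 1568 ± 94.6 in chow. It fell in HF_PBS by 1.17 against HF (adjusted p = 0.00813) and by 1.21 against chow (adjusted p = 0.00644), and its difference in HF_5AzaD was -0.61 against HF (adjusted p = 0.124). The markers of 8 of the 10 lists held calls in these comparisons. In HF_PBS against chow 3 of 5 astrocyte, 2 of 7 microglial, 2 of 8 striatal and 1 of 8 oligodendrocyte markers rose, while 2 of 8 neuronal, 1 of 5 cortical glutamatergic and 1 of 2 choroid plexus markers fell. In HF_PBS against HF 1 of 5 astrocyte and 1 of 8 oligodendrocyte markers rose, and 1 of 5 cortical glutamatergic and 1 of 2 choroid plexus markers fell. In HF_5AzaD against chow 2 of 7 microglial and 1 of 3 red blood cell markers rose and 1 of 2 choroid plexus markers fell, and in HF_5AzaD against HF the 1 marker that passed was that choroid plexus one, which fell. Endothelial and mural and meningeal markers passed in none of the 4. Of all loci, 12.4% were called higher and 15.7% lower in HF_PBS against chow, and 10.7 and 13.2% in HF_PBS against HF. In HF_5AzaD the shares were 7.18 and 9.11% against chow and 6.61 and 7.64% against HF. The lists are short: 1 of 8 oligodendrocyte markers is 12.5%, near the share called higher in the HF_PBS comparisons, and 1 of 5 cortical glutamatergic markers is 20%. Whether the marker calls bear on the ribosomal protein genes was not tested.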

How the data were processed

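Poly-A RNA was taken from about 1000 ng of total RNA per sample, with fragments of 200 to 400 bp, per the labels' protocols. The authors deposited 1 table of FPKM values per locus and library, with a status for each value. Cufflinks, Cuffdiff, Bowtie, Bowtie2, TopHat, TopHat2 and the build rn5 are named, without roles, per the submitters' processing notes; use of strand is not stated there. Absolute depth is unknown; steps in the low FPKM values put the relative depth of the chow libraries at 38.7 to 100% of the deepest and of the other libraries at 30.1 to 44.1%. The table held 0 columns outside the series.

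From the deposited FPKM, log2(FPKM + 0.5) was fitted with limma 3.58.1 in R 4.3.3 with 4 group means (12 residual degrees of freedom) and 6 contrasts. Loci averaging under 1 FPKM were left out, as were loci without the status OK in all 16 libraries (161, of which 136 passed the mean). Benjamini-Hochberg adjustment ran over 14824 loci, with a threshold of 0.05. The script was tested on simulated data. Sums and shares were computed in R. Promoters were read and figures made with matplotlib 3.10.9, pandas 2.3.3 and numpy 2.4.6 under Python 3.11.15. Promoters are RefSeq's on GRCr8, a build other than that of the table, and were matched by symbol only.

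Samples were grouped by their stated treatment. The design text uses the abbreviation HFD for rats on diet only, while the titles give it to rats with PBS. Were those 2 groups exchanged, the 40 calls of HF_PBS against chow would belong to HF against chow. The 19 of HF_5AzaD against HF would belong to HF_5AzaD against HF_PBS, and the 32 rises of HF_PBS against HF would be falls. The split of 8 injected and 8 uninjected libraries would then mix injected and uninjected rats on both sides. The members and lists were chosen with earlier results of these data known. Genes were named by rule: the 3 highest means, the 5 largest called differences and the 2 lowest p per comparison (the 3 lowest p where none passed), the 3 smallest injected differences, the copies and their parents, and the genes named outside the Rpl and Rps pattern. The initiation factor list was taken by symbol pattern, which also took 4 Eif2c symbols (older Argonaute names) and Eif4enif1. Alternatives covered the pseudocount, filters, scalings, variance priors, the groups fitted, a replicate block and each library left out. Values of some single genes are not reported here.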

Additional observations from a re-analysis of the deposited data

Results flagged for a closer look

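Within a group of 4 libraries, 1 library stood apart from the other 3 (Dixon's test at the 95% level) in 9 of 127 groups examined over 34 genes; chance gives about 1 in 20. In HF_5AzaD 7 this was so for Rps24 at 479.7 FPKM (the others 297 to 310.3), Rps15 at 490.1 (341 to 362), Rps29 at 190.5 (28.8 to 42.7) and Rpl27 at 91.3 (41.0 to 45.6). HF_5AzaD 6 was low for Rpl23a, at 32.4 FPKM against 63.9 to 65.1. In HF_PBS 4, Rpl36 was at 9.47 FPKM against 5.32 to 5.73. Among uninjected libraries, Rps29 was at 25.8 FPKM in HF 7 against 15.5 to 16.5, Rpl34 at 24.4 in chow 2 against 14.0 to 15.6, and Rpl9 at 1.02 in chow 3 against 1.25 to 1.28.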

How the results depend on the processing

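The 4 counts of members above 0 were recomputed in 122 settings in all and moved by more than 1.5 times in 21; the 8 counts at 0 moved in 7 of 242. Over 27 gene values and 817 settings, 0 calls changed sign and 48 were lost, of which 21 were Rps29, 8 Rpl23a and 6 Rpl27, and the other 13 Rpl10a, Rpl6, Rps15a and Rps24 in HF_5AzaD comparisons. Rescaled to the same FPKM sum, of which 1 locus holds up to 76.6%, the higher members numbered 2 (HF_5AzaD against HF), 1 (HF_5AzaD against chow), 9 (HF_PBS against HF) and 9 (HF_PBS against chow), of 115, 110, 269 and 363 higher loci. Member medians were then 1.10, 1.10, 1.53 and 1.47, against all-loci medians of 0.62, 0.56, 0.92 and 0.87; in HF_5AzaD against HF_PBS they were -0.38 and -0.29, and in HF against chow -0.00 and -0.07. Fitted on the compared groups alone, HF_5AzaD against HF held 0 of 10 higher loci and HF_PBS against HF 17 of 560. Omitting HF_PBS 3, HF_PBS 4 and HF_5AzaD 7, chosen after seeing the data, left 8 higher and 1 lower in HF_PBS against HF (median 0.25) and 7 higher and 1 lower in HF_PBS against chow (median 0.33), the lower one being Rps10; the median of HF_5AzaD against HF_PBS was then 0.06. Leaving out each library gave 6 to 26 higher in HF_5AzaD against HF, 9 to 34 in HF_5AzaD against chow, 16 to 39 in HF_PBS against HF and 23 to 44 in HF_PBS against chow, and 0 to 1 lower in HF_5AzaD against HF, HF_PBS against HF and HF_PBS against chow. The cause of these changes was not tested. A replicate block was fitted on the compared groups alone, with the numbers they share. For HF_5AzaD and HF these were 5, 6 and 7. With that block, 0 rose in HF_5AzaD against HF, where 0 of all loci passed as higher, and 19 in HF_PBS against chow, of 837 loci. Same-numbered libraries did not pair, with correlations of -0.107 to 0.0641 and -0.164 to 0.0236. Of these libraries, 0 of 3 and 0 of 4 matched their own number best.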
